A study of Zea mays with 4 samples.

Results

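The genes described here are the cellulose synthases cesa10, cesa11 and CesA12 and the brittle stalk genes bk2 and Bk2L3 of maize, measured in the stem. They were chosen by name, through the platform's gene identifiers and the RefSeq symbols and synonyms for those identifiers, and all 5 were found, as 6 probe sets, among 1108 genes that the platform annotation names. Total RNA of ear internodes, which are the segments of the stem next to the ear, was taken from the inbred line F271 at 2 stages, tassel emergence and early silking, with 2 Affymetrix maize arrays each. Both stages share the line, the tissue, an irrigated field in a dry, hot summer and the absence of any treatment. F271 is the unfavourable parent of a population in which loci for lignin and cell wall degradability were mapped, and it is a single line, so nothing here shows how other lines behave.

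Cellulose is spun out at the plasma membrane by rosette-shaped complexes of cellulose synthases, and different sets of these subunits serve the thin primary wall of growing cells and the thick secondary wall laid down inside it when growth stops. In the grass stem the secondary wall of xylem and of the fibres around the bundles and under the epidermis carries the mechanical load. cesa10, cesa11 and CesA12 are counted among the secondary wall subunits. bk2, brittle stalk2, encodes a COBRA-like protein, a family of proteins anchored to the outer face of the membrane. Maize plants that lack it have stems that snap and less cellulose in their walls. Bk2L3 is named as a brittle stalk2-like gene of the same family.

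All 5 genes gave signals far above a log2 value of 4, the floor set for testing. They were lower at early silking than at tassel emergence. For each of them both silking arrays lay below both tassel emergence arrays, as for 24.9% of tested probe sets. The differences ran from 2.31-fold for Bk2L3 to 6.26-fold for bk2. None passed a Benjamini-Hochberg adjusted p of 0.05 over the 10782 tested probe sets, where the background was 0%, since no probe set on the array passed (limma, smallest adjusted p = 0.0864). At an unadjusted p under 0.05, 2679 probe sets differed in either direction. All values are log2 summaries, on which a step of 1 is a doubling, and the number of arrays limits their precision. In whole internodes, a smaller share of cells building secondary walls and less RNA from these genes in each such cell cannot be told apart.

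Of the cellulose synthases, cesa10 read 12.46 and 12.83 on the tassel emergence arrays (replicates 1 and 2) and 10.62 and 10.13 on the early silking arrays. The silking arrays were both lower, and the space left between the stages, 1.84, was wider than either pair of replicates. The stage means were 12.64 ± 0.27 (SD, n = 2) and 10.37 ± 0.35 (SD, n = 2). They differed by -2.27 (SE 0.28), which is 4.83-fold (limma, adjusted p = 0.0864).

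cesa11 had 12.36 and 12.90 at tassel emergence and 10.50 and 9.82 at early silking. It had the widest replicate spread of these genes at both stages, with SDs of 0.38 and 0.48, and still no overlap. Its change was -2.47 with an SE of 0.35, or 5.56-fold (limma, adjusted p = 0.0898). The name of its probe set, ZmAffx.13.1.S1_s_at, marks a type whose probes can match transcripts of more than 1 gene, so its signal may not come from cesa11 alone.

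CesA12 had 13.11 and 13.41 at tassel emergence and 11.40 and 11.19 at early silking. Its replicates lay closest together relative to its change, which was 6.72 times the larger of the replicate differences. The change was -1.97 with an SE of 0.21, or 3.91-fold (limma, adjusted p = 0.0864).

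**Figure D1:**
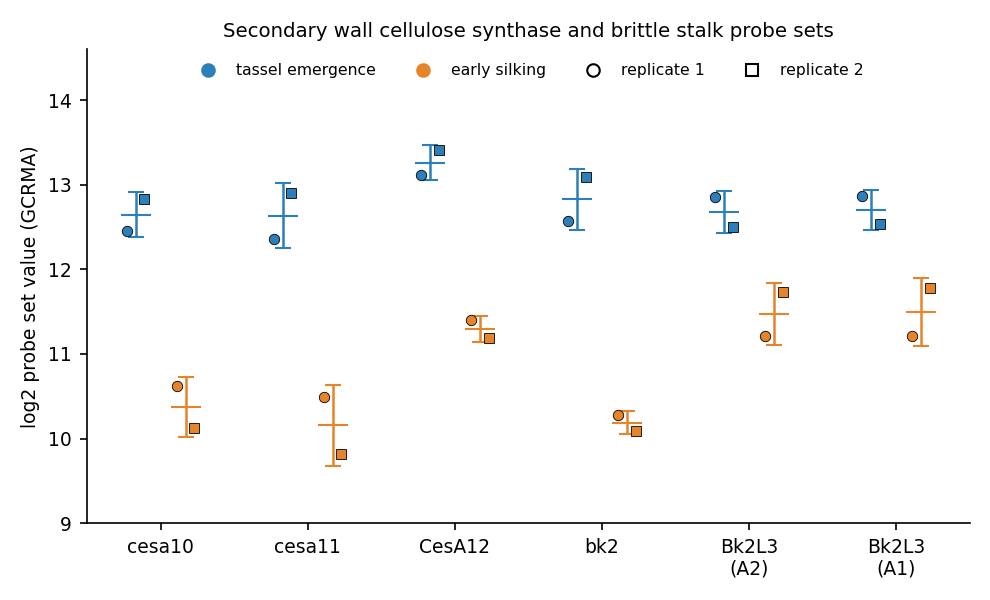
Log2 probe set values of the 6 probe sets on each array, with tassel emergence in blue and early silking in orange, replicate 1 as circles and replicate 2 as squares. Horizontal bars are means and error bars are SDs of 2 arrays. Levels of different probe sets are not comparable, and within each probe set the silking points lie below the tassel emergence points, with the narrowest space for Bk2L3.

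The COBRA-like gene bk2 had 12.57 and 13.08 at tassel emergence and 10.28 and 10.09 at early silking. This was the widest separation of the group, with 2.29 between the lowest tassel emergence array and the highest silking array. The change was -2.65 with a 95% interval from -3.37 to -1.93 (limma, adjusted p = 0.0864), which is a fold between 3.80 and 10.3.

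Bk2L3 was measured by 2 probe sets, while the other 4 genes had 1 each. The first, with the ending A1_a_at in its name, gave 12.87 and 12.54 at tassel emergence and 11.21 and 11.78 at early silking. The second, with the ending A2_a_at, gave 12.86 and 12.51, and then 11.21 and 11.73. The stages were apart in both, by 0.75 and 0.77, a smaller space than for any other gene of the group.

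The Bk2L3 probe sets had changes of -1.20 and -1.21 with SEs of 0.29 and 0.28 (limma, adjusted p = 0.132 and 0.129). They differed by at most 0.05 on any array. Among 107 genes with several tested probe sets the median spread between the changes of a gene's probe sets was 0.34, and Bk2L3 had the smallest. The names of both end in a suffix for probe sets that take in several transcripts of 1 gene. Which probes they hold is not given in the sources used here, so whether they are independent measurements of Bk2L3 was not tested.

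All 6 probe sets were lower without overlap, which held for 24.9% of tested probe sets and for 23.8% of the 1477 with a mean of 11 or more, the range in which these genes lie. All 6 also had an unadjusted p under 0.05 and were lower, as were 12.1% of tested probe sets. The size of the differences sets bk2, cesa11, cesa10 and CesA12 farther out. The 5 genes were chosen with earlier results of these data known, so the shares that follow only describe them. Only 1.68% of tested probe sets had a change as low as that of bk2, 2.10% one as low as cesa11, 2.69% as cesa10 and 3.85% as CesA12, against 8.82% for Bk2L3. Over the 5 genes the median change was -2.27, beside 0.10 over all tested probe sets. Within tassel emergence the median SD of the 1477 was 0.15, and within early silking 0.12. All 6 probe sets had larger SDs at both stages. When p was adjusted over the 800 named genes with 1 probe set each, where 2.75% were past the threshold and lower, bk2, cesa10 and CesA12 passed (limma, adjusted p = 0.0465 for each), cesa11 had an adjusted p of 0.057 and Bk2L3 one of 0.131.

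**Figure D2:**
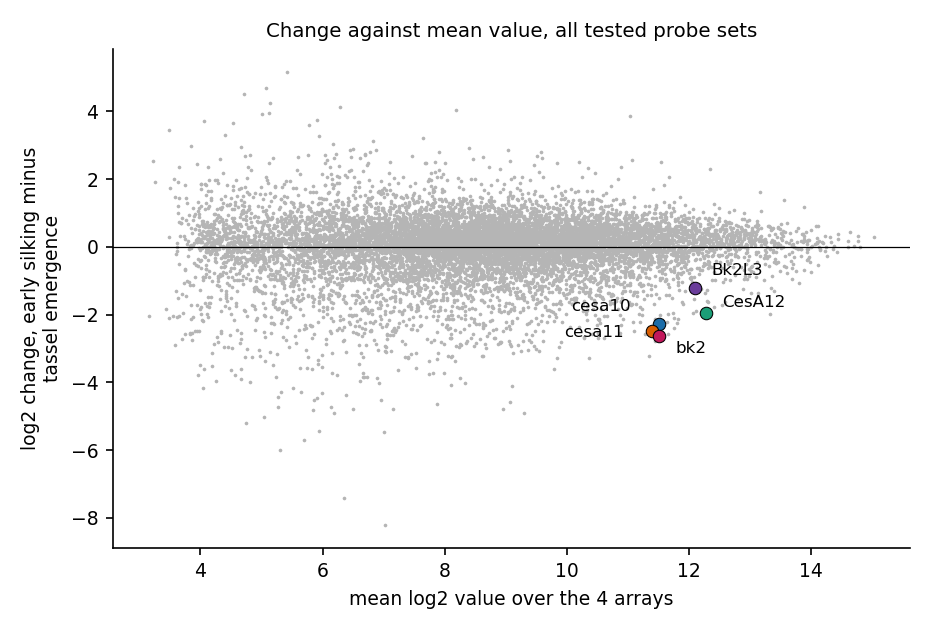
Log2 change, early silking minus tassel emergence, against the mean log2 value over 4 arrays for each of the 10782 tested probe sets (grey), with 1 probe set for each of the 5 genes in colour. bk2, cesa11, cesa10 and CesA12 lie at the lower edge of probe sets of like mean value, at -2.65 to -1.97, and Bk2L3 lies nearer the bulk at -1.20.

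The changes of the 5 genes were also set against each other, in 10 pairs. The exact 2-sided permutation test cannot give a p under 0.333 here, so its p cannot tell any pair apart, and the values are given for their size and spread. The pair of brittle stalk genes differed most: bk2 minus Bk2L3 was -0.29 and 0.55 at tassel emergence and -0.93 and -1.70 at early silking. The difference of their changes was -1.44 (exact permutation p = 0.333, 0.37 adjusted over the 10 pairs). CesA12 minus bk2 had the closest replicates at silking, at 0.54 and 0.32 and then 1.12 and 1.10, a difference of changes of 0.68 (exact permutation p = 0.333). cesa11 minus bk2 was -0.21 and -0.18, then 0.22 and -0.27, with overlapping stages. The cellulose synthases differed among themselves by 0.20 for cesa10 minus cesa11, -0.31 for cesa10 minus CesA12 and -0.51 for cesa11 minus CesA12 (exact permutation p = 0.333 each).

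The replicates divided the group in the same way at both stages. cesa10, cesa11, CesA12 and bk2 were lower on replicate 1 than on replicate 2 at tassel emergence, by 0.29 to 0.54, and higher on replicate 1 at early silking, by 0.19 to 0.67. Bk2L3 went the other way at both stages, with replicate 1 minus replicate 2 at 0.33 and then at -0.57. Opposite signs in the stages were common on these arrays: 37.7% of tested probe sets had the signs of the first 4 genes and 27.8% those of Bk2L3.

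**Figure D3:**
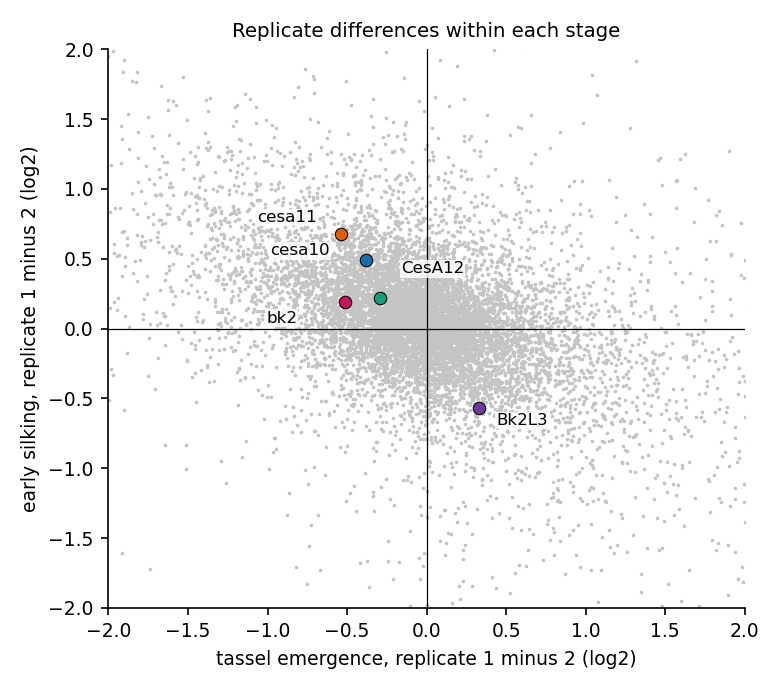
Replicate 1 minus replicate 2 at tassel emergence (horizontal, log2) and at early silking (vertical, log2) for all tested probe sets in grey and the 5 genes in colour; 464 probe sets lie beyond the plotted range of 2 in either direction. cesa10, cesa11, CesA12 and bk2 fall in the upper left quadrant and Bk2L3 in the lower right.

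A technical measure moved with stage. The mean 3' minus 5' gap of 5 control transcripts, which grows when RNA is degraded or copied incompletely, was 4.57 and 2.88 at tassel emergence and 1.84 and 2.37 at early silking. The tassel emergence arrays differed in gap by 1.69 from each other, and the stage means differed by -1.63. Between the tassel emergence arrays cesa10, cesa11, CesA12 and bk2 differed by 0.29 to 0.54. Between the silking arrays, whose gaps differed by -0.53, they differed by 0.19 to 0.67. They were lower on the array with the larger gap at both stages. Between stages they were lower where the gap was smaller. Bk2L3 was higher on the array with the larger gap within both stages and between them. With the gap as a covariate the changes were -3.14 for bk2, -3.13 for cesa11, -2.74 for cesa10 and -2.28 for CesA12, and -0.76 for Bk2L3, none past the threshold (limma, adjusted p = 0.0696 for bk2 to 0.326 for Bk2L3). Where each probe set lies along its transcript is not given in the sources used here, so the part of the gap in these results was not tested further. By the labels, replicates 1 and 2 used 290 ng and 440 ng of RNA for tassel emergence, against 340 ng and 400 ng for early silking.

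**Figure D4:**
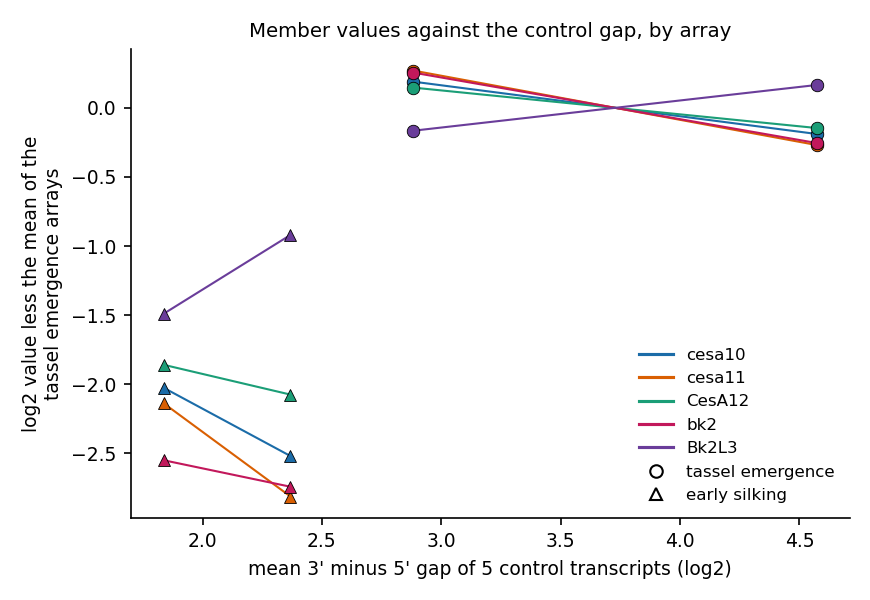
Log2 value of each gene, less its mean over the tassel emergence arrays, against the mean 3' minus 5' gap of control transcripts on that array, with circles for tassel emergence, triangles for early silking and a line joining the replicates of a stage. The lines of cesa10, cesa11, CesA12 and bk2 slope down with the gap at both stages and that of Bk2L3 slopes up, while the silking points of all 5 genes lie lower at smaller gaps.

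Among related genes, the primary wall cellulose synthases were closest in kind. All 9 that the array names (CesA-1 to CesA-9) were measured. In 7 the silking arrays were lower without overlap, beside 24.9% of tested probe sets. All 9 were lower at early silking, with a median change of -1.25. None passed over all probe sets. CesA-8 had the lowest change, with 10.22 and 10.21 at tassel emergence and 7.75 and 7.86 at early silking, or -2.41 (limma, adjusted p = 0.0864). This lies within the range of the secondary wall subunits. The other 8 had smaller changes than CesA12, down to CesA-3 with 9.47 and 9.73 and then 9.55 and 9.49, which overlapped.

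Averaged over genes and taken from the tassel emergence mean of each, the 3 secondary wall cellulose synthases stood at -2.01 and -2.47 on the silking arrays and the 9 primary wall ones at -1.18 and -1.14. The sets were picked with earlier results known and have 2 arrays a stage, so this difference was not tested. Bk2L6, the only other COBRA-like gene named on the array, was below the floor on every array, with values of 2.12 to 2.17.

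**Figure D5:**
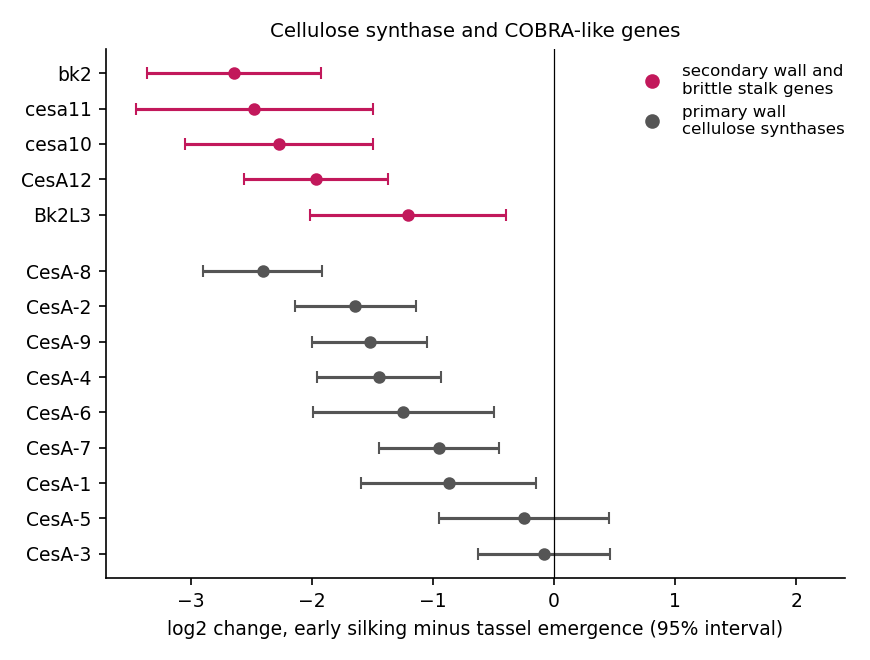
Log2 change, early silking minus tassel emergence, with 95% intervals from limma, for the 5 genes (pink, 1 probe set each) and the 9 primary wall cellulose synthases (grey). The intervals of the 5 genes and of 7 primary wall genes lie below 0, and CesA-8 at -2.41 falls among the secondary wall subunits.

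Tubulins, whose microtubules guide the cellulose synthase complexes, were lower in 10 of 10 genes, with a median of -1.18. In 9 there was no overlap, beside 24.9% of tested probe sets lower without overlap. With the brightest probe set standing for each gene, tub5 had the lowest change, -1.93, and TUA1 the smallest, -0.44. Probe sets of a gene disagreed in size here, since 3 other tub6 probe sets had -2.93, -3.36 and -3.86 and the stages overlapped in the other tub5 probe set. Of the monolignol genes, which make the units of lignin, 4 were above the floor on all arrays and were lower without overlap, with a median of -0.64 and the smallest change, -0.47, in the cinnamoyl-CoA reductase gene cncr1. ccr2, a second such gene, had the lowest fitted change of the list but passed the filter through tassel emergence alone, with 4.19 and 5.78 there and 3.33 and 3.16, below the floor, at silking. No gene of either list passed over all probe sets.

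Sucrose synthases, which supply the UDP-glucose that cellulose synthase polymerises, had smaller differences. sus1 had 14.37 and 14.43, then 13.89 and 13.82, a change of -0.55 (limma, adjusted p = 0.176). sh1, the gene of the shrunken1 locus, had overlapping stages and a change of 0.005 in its brightest probe set. Its other probe sets were below the floor on all arrays, at 1.89 to 2.02. Of the wall MYB factors, myb42, known in maize as a repressor of lignin genes, had 6.02 and 4.03 at tassel emergence and 6.97 and 8.78 at early silking. These values were higher at silking, with large differences between replicates, and the change of 2.85 did not pass (limma, adjusted p = 0.19). Another myb42 probe set lay below the floor on all arrays, at 2.16 to 2.20. myb31 stood between 4.19 and 5.73 on all arrays with overlapping stages, and the gene matched as MYB1 was below the floor on every array.

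By the rule of likeness, which takes named genes whose 4 array values, less their tassel emergence mean, lie nearest to the average of the 5 genes, 6 of 795 genes were taken. Their distances ran from 0.22 to 0.47 log2 units, beside a median of 3.19. FAD8, a fatty acid desaturase, had 8.26 and 8.76 and then 6.43 and 6.44, and tip1, a tonoplast aquaporin, had 10.99 and 10.99 and then 9.17 and 8.82. tub4, a beta-tubulin, had 13.01 and 13.14 and then 11.17 and 11.17. sum1 followed with stage means of 8.95 and 7.08. INO1, a myo-inositol phosphate synthase, had 4.22 and 4.92 and then 2.65 and 2.41. LOC541988 had 4.24 and 4.11 and then 2.44 and 1.84. Both of these passed the filter through tassel emergence alone and were below the floor on both silking arrays. Bk2L3 itself stood at a distance of 1.46 from the average it contributes to. The distances were 0.77 for bk2, 0.64 for cesa11, 0.31 for cesa10 and 0.21 for CesA12. This likeness describes 4 arrays and says nothing of shared control.

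The labelled tissue was set against markers of stem and of other organs. 4CL and PAL1, phenylalanine ammonia-lyase, both expressed in lignifying stem, averaged 13.57 and 13.70 on the tassel emergence arrays and 12.84 and 12.91 on the silking arrays. The pollen profilins PRO1, PRO2 and PRO3 were below the floor on all arrays. Of 4 genes matched as kernel markers, ole1 and glb1 were below it. The gene matched as GLB1 and the brightest probe set of the zein gz27 were above it with overlapping stages. The other gz27 probe sets were below the floor on all arrays. GLB1 and glb1 are separate genes whose symbols differ only in case, and whether GLB1 is a kernel gene was not tested. Of 7 genes matched as green tissue markers, 6 were above the floor on all arrays. These 6 were higher at silking, 3 of them without overlap, and averaged 11.26 and 11.31 on the tassel emergence arrays and 11.86 and 11.84 on the silking arrays. The share of all tested probe sets higher without overlap was not computed. The seventh, me3, passed the filter through silking alone, at 2.86 and 3.21 and then 6.37 and 4.85. One of the 6 was matched as PDK1, a symbol that also stands for a kinase. The part of green tissue in the differences was not tested.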

How the data were processed

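The authors deposited log2 probe set values made with GCRMA, per the submitters' processing notes. That method estimates background from each probe's bases and normalizes the arrays to each other. Its version is not given in the sources used here. The values themselves, 1.36 to 15.24 without controls, show the log2 scale. The array medians lay between 6.35 and 6.51. The unit assumed in the design held.

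Of 17734 probe sets, 113 controls were left out, and 10782 of the rest were tested, those with a log2 value above 4 on at least 2 of 4 arrays. All 6 member probe sets exceeded 4 on every array. Names came from the platform table, updated through gene identifiers with the RefSeq table (Zm-B73-REFERENCE-NAM-5.0) for naming alone, which held 1060 of the 1108 genes. It gives no symbol but a locus number for the 5 genes, and their names are its synonyms. 1452 probe sets had 1 gene, 1 had several and 16168 had none. Other genes were represented by the probe set of highest mean, and the 5 genes by all of theirs.

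The stage difference was fitted with limma 3.58.1 (lmFit and eBayes, 2-sided, Benjamini-Hochberg) in R 4.3.3 across all tested probe sets, tested first on simulated data. Pairwise differences between genes used an exact permutation test. Nothing in the labels says that replicates were separate plants. The p-values thus reflect only how far these arrays differ, which may be technical. Replicate numbers are those in the titles. Named genes were the 5 genes, the lowest, highest or smallest change of each related list, and 6 by likeness. The members, lists and tests were chosen with earlier results of these data known. Sequences are not printed and promoters and proteins were not analysed here. Alternatives were the replicate block, other filters, quantile and median scaling, an intensity trend, 1 common variance, the gap as a covariate, each array left out and adjustment over named genes. Crossed replicate numbers and the gap without actin were added after seeing the data.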

Additional observations from a re-analysis of the deposited data

How the results depend on the processing

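Every alternative left all 6 probe sets lower at early silking, with changes of -3.14 to -2.39 for bk2, -3.13 to -2.14 for cesa11, -2.74 to -2.02 for cesa10, -2.28 to -1.82 for CesA12 and -1.49 to -0.76 for Bk2L3. All 6 stayed apart by stage under quantile values and centred arrays; leaving out an array cannot make separate stages overlap. With each array left out in turn, where the lone array of a stage is assumed to vary like the other stage, the median over the 6 probe sets, -2.12, ran from -2.30 to -1.94, and no member passed (limma, adjusted p from 0.106 to 0.438). The gap as a covariate gave a median of -2.51, and -2.49 without actin. It moved Bk2L3 to -0.76, over 1.5 times from -1.20. With the replicate block, the changes were the same (bk2 -2.65) and none passed (limma, adjusted p = 0.233 for bk2, cesa10, cesa11 and CesA12), and no probe set on the array passed. The arrays were not treated as paired by number in the main fit, since the labels state no factor besides stage. The replicate deviations of the stages correlated at r = -0.42 across probe sets, which does not show what the numbers mark. With the numbers crossed 357 probe sets passed. bk2 (-2.65), cesa11 (-2.47), cesa10 (-2.27) and CesA12 (-1.97) passed with crossed numbers and with 1 common variance, where 1045 probe sets passed, and bk2, cesa10 and CesA12 passed when adjusted over named genes; each of these alters the error or the number of tests, and none the change itself. The cause of the calls gained with crossed numbers was not tested. With 2 arrays a stage and 2 residual degrees of freedom in the main fit, calls rest largely on how the variance is estimated. A block or a covariate leaves fewer.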
